A study of Rattus norvegicus with 10 samples.

Results

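Glycolysis, gluconeogenesis and glycogen turnover were followed in rat liver through 32 named genes, listed by name in pathway order from hexose phosphorylation to glycogen, with earlier results of these data known. Of these, 30 had a probe set annotated to them alone, and each was read through the brightest such probe set, out of 14217 genes followed in the same way. The remaining members, Gapdh and G6pc, were covered only by probe sets annotated to several genes and are described apart, outside the counts. The comparison was between 5 livers of rats given corn oil by gavage, labelled 0 mg/kg, and 5 given indole-3-carbinol (I3C), an indole released from cruciferous vegetables, at 300 mg/kg in corn oil. The rats were females of the Harlan Sprague-Dawley strain, and both groups were dosed 5 days per week. The labels state 13 weeks, while the series' design text refers to a study of 2 years, so the age of the rats at sampling is not settled. Strain, sex, vehicle and route were shared by both groups, the labels number samples but not animals, and p-values therefore measure the spread between these samples. Values are log2 expression levels from rat whole-genome 3' arrays, on which 1 unit is a 2-fold difference.

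The liver holds glucose in balance by running opposite pathways. Glycolysis turns glucose into pyruvate, gluconeogenesis rebuilds glucose from pyruvate, lactate and amino acids, and glycogen stores it. The liver forms of phosphofructokinase and pyruvate kinase carry out some of the regulated steps of glycolysis. Fructose bisphosphatase, phosphoenolpyruvate carboxykinase and glucose 6-phosphatase carry out some of those of gluconeogenesis. Insulin signals through its receptor and the substrates Irs1 and Irs2, and glucagon and adrenaline oppose it.

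Of the 30 members 8 changed between dosed and vehicle livers, 1 upward and 7 downward. That is 26.7% of the members, beside 6.43% of all 14217 genes. The single rise compares with 3.32% of all genes called higher, and the 7 falls with 3.11% called lower. Pfkfb1 rose, and Khk, Pklr, Pdk2, Pcx, Slc37a4, Irs2 and Pygl fell. Differences among the 30 ran from -0.75 to 1.31, with a median of -0.09 against -0.0039 over all genes. Of the 30, 20 lay below 0, beside 51.4% of all genes. Pfkfb1 alone reached a 2-fold difference, and 4 members reached 1.5-fold. In 11 members dosed and vehicle arrays did not overlap, 2 with the dosed arrays above and 9 below, whereas over all genes 8.67% did not overlap, 4.61% above and 4.07% below. In these pieces of whole liver, fewer cells of a type and less RNA per cell cannot be told apart. Calls are from limma, with Benjamini-Hochberg adjustment over 31042 probe sets and a threshold of 0.05, and ± after a difference is its SE.

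**Figure D1:**
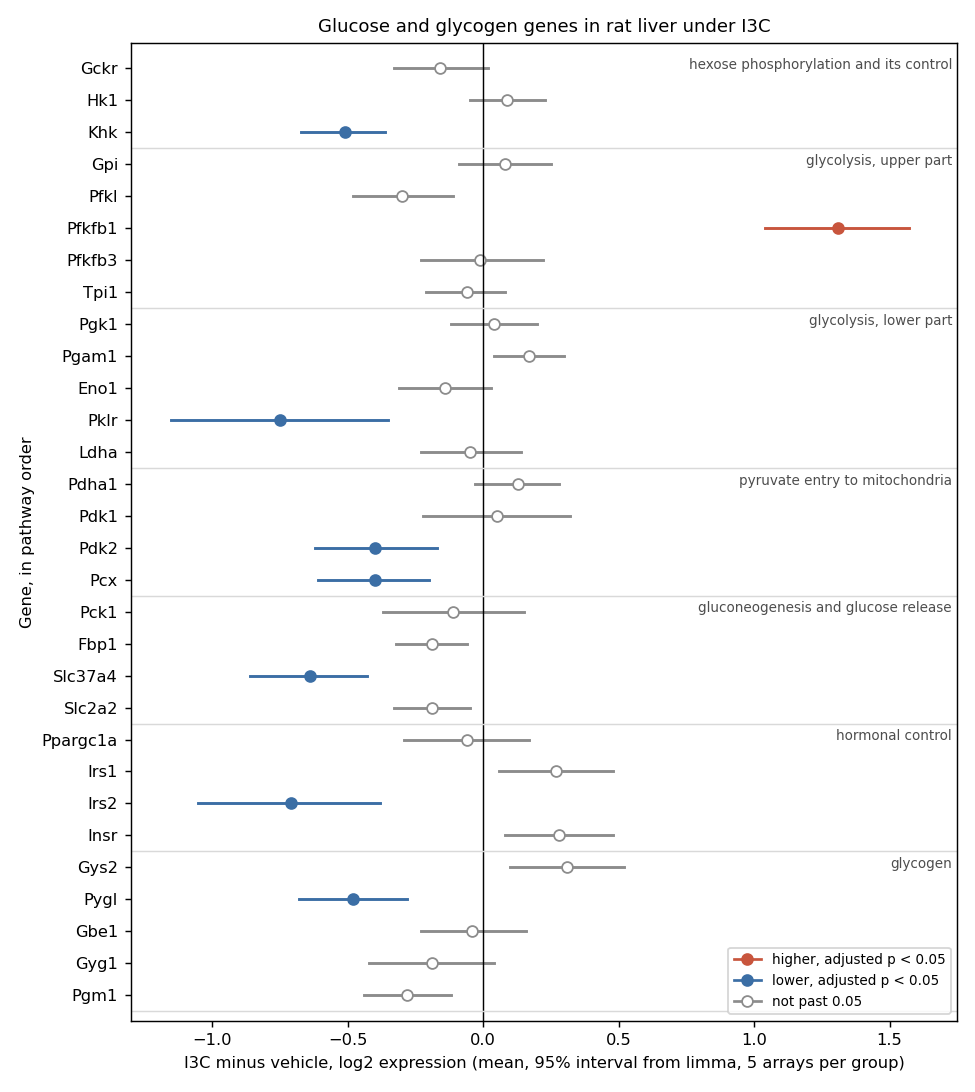
Difference between I3C and vehicle arrays in log2 expression for the 30 members in pathway order, with 95% intervals from limma (5 arrays per group). Filled points are the 8 genes past the threshold: Pfkfb1 at 1.31 is the only one to the right of 0, and the 7 to the left lie between -0.75 and -0.40.

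Some properties of the arrays moved with the groups. The labelled tissue held up against its markers: the 7 hepatocyte markers followed, albumin among them, lay at or above the 99.8th percentile of probe sets, with summed levels of 17.25 to 17.29 in vehicle and 17.22 to 17.29 in dosed arrays. Of these 7, Apoa1 rose by 0.38 ± 0.07 (limma adjusted p = 0.00883) and Cyp2e1 fell by 0.33 ± 0.06 (adjusted p = 0.00689). The summed level of 5 Kupffer cell and macrophage markers was lower in every dosed array, at 11.43 to 11.90 against 11.97 to 12.26 on the log2 scale. Linear levels were summed, so Clec4f, the brightest of the 5 (11.35 in vehicle, 11.01 in dosed arrays), weighs most. Taken singly, Clec4f and Csf1r were lower in every dosed array, Cd68, Cd163 and Adgre1 overlapped, and 0 of the 5 were past the threshold. The part of this lower sum in the results below was not tested. Sums of 5 endothelial markers (12.01 to 12.20 dosed, 12.11 to 12.33 vehicle) and 7 stellate cell markers (11.08 to 11.40 dosed, 11.17 to 11.56 vehicle) overlapped. Among the stellate cell markers Lrat fell. The 5 skeletal muscle markers, whose cells use other forms of several of these enzymes, lay at the 26.5th percentile or below. The difference between the 3' and 5' ends of the Gapdh transcript, an indirect sign of how intact the RNA was, also differed between the groups. It is described with Gapdh.

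Pfkfb1 encodes the liver form of the bifunctional enzyme that makes and breaks fructose 2,6-bisphosphate, the signal that speeds glycolysis and slows gluconeogenesis. Its level in the vehicle arrays was 8.29, 8.87, 8.57, 8.62 and 8.80, and in the dosed arrays 9.88, 10.29, 9.95, 9.82 and 9.75. Every dosed array lay above every vehicle array, with nearly 1 unit between the nearest values. The means were 8.63 ± 0.23 and 9.94 ± 0.21 (SD, n = 5 each), a difference of 1.31 ± 0.12 and a 2.47-fold rise (limma adjusted p = 6.51e-05). Its paralogue Pfkfb3, an inducible form of the same enzyme with strong kinase activity, was 7.35 ± 0.15 and 7.34 ± 0.21 (SD, n = 5), a difference of -0.01 with a 95% interval of -0.23 to 0.22. The other 2 probe sets of Pfkfb3 differed by -0.04 and -0.15 and did not pass.

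Pklr encodes the pyruvate kinase of liver, which makes pyruvate in the last step of glycolysis. It measured 10.01, 10.10, 10.60, 10.02 and 10.52 in vehicle arrays and 8.95, 9.84, 9.96, 9.34 and 9.43 in dosed arrays. All dosed arrays were lower than all vehicle arrays, dosed 1 the most and dosed 3 only just. The fall was 0.75 ± 0.18 (1.68-fold, limma adjusted p = 0.0355), the largest fall among the 30. The gene's second probe set fell as well, by 0.87 ± 0.19 (limma adjusted p = 0.0198). The call on the brighter probe set ended without vehicle 2, 3 or 5 or dosed 1, 4 or 5 (adjusted p 0.0539 to 0.0903), with differences of -0.86 to -0.61 over all arrays left out.

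Promoter windows of 250 bases upstream of the start site are given for Pfkfb1, the only riser, and for Pklr and Pygl, 2 of the fallen members whose windows held a searched motif. The sequences and starts are RefSeq's on assembly GRCr8, at chrX:22941926-22942175 (+ strand) for Pfkfb1, chr2:176841014-176841263 (+ strand) for Pklr and chr6:94476220-94476469 (- strand) for Pygl. Each is written 5' to 3' along the gene's strand and ends at the base before the start, and capitals mark the motif matches, which in Pygl are the reverse complement of the motif's letters. For Pfkfb1 and Pklr this start lies inside the span that RefSeq gives the gene, so that it is not the only start.
Pfkfb1: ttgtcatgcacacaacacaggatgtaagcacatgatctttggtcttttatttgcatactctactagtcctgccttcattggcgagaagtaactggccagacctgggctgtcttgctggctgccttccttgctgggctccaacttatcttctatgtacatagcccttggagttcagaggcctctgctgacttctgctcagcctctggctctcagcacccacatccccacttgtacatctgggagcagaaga
Pklr: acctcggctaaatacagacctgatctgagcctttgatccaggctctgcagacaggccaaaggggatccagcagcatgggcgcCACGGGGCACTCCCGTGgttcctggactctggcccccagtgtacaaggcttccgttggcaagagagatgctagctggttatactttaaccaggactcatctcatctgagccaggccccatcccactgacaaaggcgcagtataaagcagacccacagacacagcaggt
Pygl: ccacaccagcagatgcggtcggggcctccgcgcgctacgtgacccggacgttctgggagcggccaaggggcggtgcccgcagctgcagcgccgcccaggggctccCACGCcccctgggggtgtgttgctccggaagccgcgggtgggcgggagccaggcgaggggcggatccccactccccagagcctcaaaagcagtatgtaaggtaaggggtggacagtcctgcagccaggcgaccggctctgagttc

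The Pklr window carries, beginning at position -168 from the start, the motif CACGGGNNNNNCCCGTG, which is paired imperfect E boxes with 5 bases between them. This layout is that of the carbohydrate response element known from the liver pyruvate kinase promoter, where the glucose-responsive factor ChREBP binds. Of 27457 rat promoter windows of the same length, 1 held it, that of Pklr, so 1 of the 27 members with a window did. The motif was added to the search after the sequences had been read, and its fixed letters are those of the Pklr window. A match in Pklr was therefore certain beforehand. The count does not measure how rare carbohydrate response elements are, since looser forms of the element were not searched. ChREBP's own gene, Mlxipl, looked up for the same reason, was 8.56 ± 0.20 in vehicle and 8.26 ± 0.17 in dosed arrays (SD, n = 5), a difference of -0.30 ± 0.11 that did not pass (limma adjusted p = 0.144).

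The core of the site bound by the aryl hydrocarbon receptor, the main sensor of indoles, is GCGTG, searched on both strands. It was found in the windows of Slc37a4 (position -121) and Pygl (position -145), in 2 of the 6 changed members with a window, in 12 of 27 members and in 27.2% of all windows. It was not found in the Pfkfb1 window. TGACG, the core of the cyclic AMP response element, occurred in 11 of 27 member windows against 19.0% of all, among the changed members in Slc37a4 alone (position -20). The E box CACGTG occurred in 4 of 27 against 5.8%, among the changed members in Pdk2 alone, and the forkhead motif GTAAACA in 1 of 27 against 3.2%. The capitals mark letters, and binding was not measured.

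At the entry of hexoses the fructose enzyme changed and the glucose enzymes did not pass. Khk encodes ketohexokinase, which phosphorylates fructose. It was 11.42, 11.50, 11.57, 11.50 and 11.21 in vehicle arrays and 10.87, 10.89, 10.98, 10.93 and 10.96 in dosed arrays. The dosed arrays lay in a narrow band below all vehicle arrays. It fell by 0.51 ± 0.07, or 1.43-fold (limma adjusted p = 0.00131), and kept its call with any 1 array left out. Gckr, a regulatory protein of hepatic glucose phosphorylation, differed by -0.16 (95% interval -0.33 to 0.02), and Hk1, the widespread hexokinase, by 0.09 (-0.05 to 0.23).

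**Figure D2:**
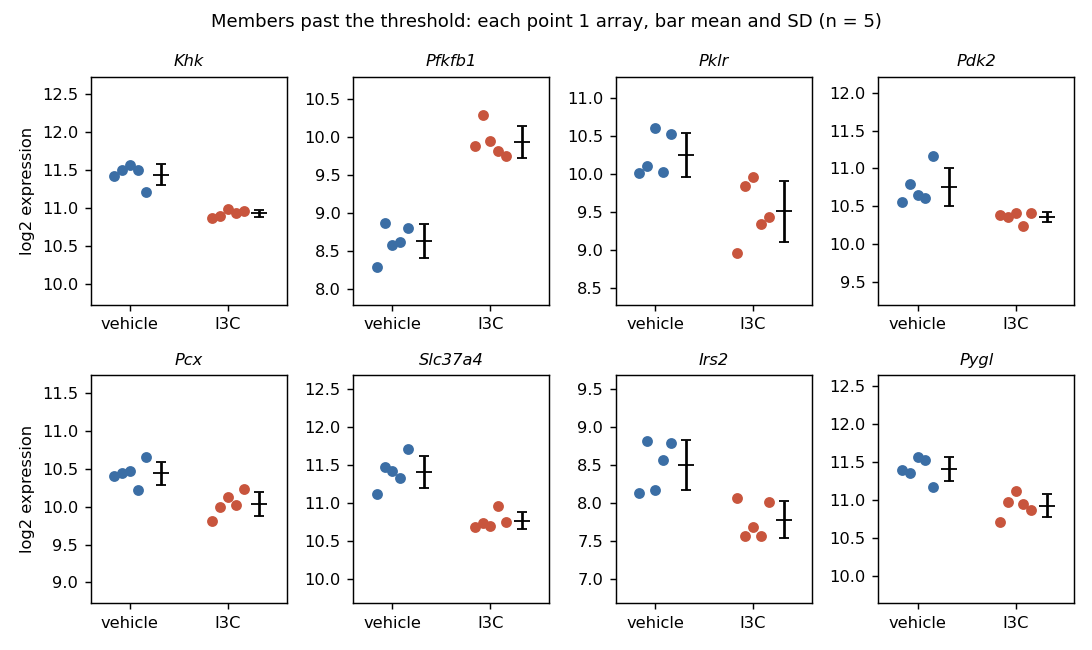
Log2 expression of the 8 changed members in each of the 5 vehicle and 5 I3C arrays, with mean and SD; every panel spans 3 units. Pfkfb1 is higher in all I3C arrays, and in Pcx alone the groups overlap, by 0.01 between dosed 5 and vehicle 4.

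Most other enzymes of the glycolytic chain differed little. Gpi, which turns glucose 6-phosphate into fructose 6-phosphate, Tpi1, Pgk1, Eno1 and Ldha, the subunit of lactate dehydrogenase that predominates in liver, differed by between -0.14 and 0.08, and none passed. Their 95% intervals lay within -0.31 and 0.25. Pgam1, a phosphoglycerate mutase, was 11.46, 11.50, 11.46, 11.33 and 11.43 in vehicle and 11.70, 11.57, 11.53, 11.58 and 11.66 in dosed arrays. Dosed arrays were above all vehicle arrays, but the difference of 0.17 ± 0.06 did not pass (adjusted p = 0.151). Pfkl, the liver phosphofructokinase of the committed step, measured 7.32, 7.59, 7.38, 7.37 and 7.76 in vehicle and 7.18, 7.19, 7.12, 7.25 and 7.20 in dosed arrays. Its groups did not overlap either, with the dosed arrays below, and the difference of -0.30 ± 0.08 did not pass (adjusted p = 0.0705).

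Gapdh, the glycolytic dehydrogenase often taken as a reference gene, was read through a probe set annotated to Gapdh and to the related gene Gapdhl10. That probe set was 13.28 ± 0.11 in vehicle and 13.33 ± 0.06 in dosed arrays (SD, n = 5), a difference of 0.05 with a 95% interval of -0.10 to 0.20. The manufacturer's control probe sets for Gapdh read the transcript at its 3' end, middle and 5' end. At the 3' end the means were 12.98 ± 0.08 and 12.98 ± 0.07, in the middle 12.83 ± 0.10 and 12.96 ± 0.07, and at the 5' end 12.53 ± 0.09 and 12.76 ± 0.09 (SD, n = 5, vehicle then dosed). The groups thus lay together at the 3' end and apart at the 5' end. The 3' minus 5' difference was 0.40, 0.32, 0.42, 0.45 and 0.65 in vehicle and 0.22, 0.29, 0.24, 0.16 and 0.24 in dosed arrays. It was smaller in every dosed array (exact permutation test, two-sided, p = 0.00794, the smallest that 5 against 5 can give, and 0.0159 adjusted over this and the beta-actin measure). For beta-actin the same difference was 1.59 ± 0.12 against 1.40 ± 0.14 (SD, n = 5, exact permutation p = 0.0476, two-sided).

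**Figure D3:**
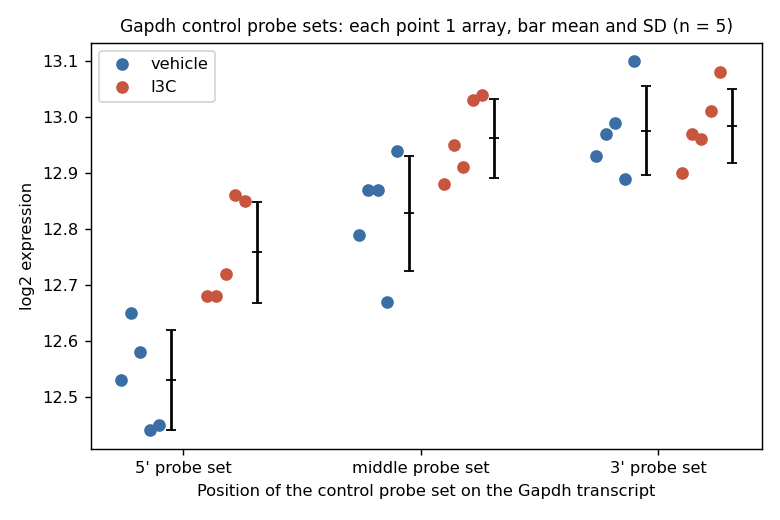
Log2 expression of the Gapdh control probe sets at the 5' end, middle and 3' end of the transcript in each array, with mean and SD (5 per group). The I3C arrays lie above all vehicle arrays at the 5' end, from 12.68 to 12.86 against 12.44 to 12.65, and among them at the 3' end.

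Pyruvate from glycolysis enters the mitochondria, where the pyruvate dehydrogenase complex turns it into acetyl-CoA or pyruvate carboxylase turns it into oxaloacetate. Pcx, pyruvate carboxylase, was 10.41, 10.44, 10.47, 10.22 and 10.65 in vehicle and 9.81, 9.99, 10.13, 10.02 and 10.23 in dosed arrays. The groups met between vehicle 4 and dosed 5. Pcx fell by 0.40 ± 0.09, or 1.32-fold (limma adjusted p = 0.0251), and lost the call without vehicle 1, 2 or 3 or dosed 1, 2 or 4 (adjusted p 0.0524 to 0.0662).

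Pdk2, a kinase that switches pyruvate dehydrogenase off, was 10.56, 10.80, 10.65, 10.61 and 11.17 in vehicle and 10.38, 10.36, 10.41, 10.24 and 10.41 in dosed arrays. All dosed arrays were below all vehicle arrays, and vehicle 5 stood highest. The fall of 0.40 ± 0.10 was only just past the threshold (limma adjusted p = 0.0482), and the call ended without any 1 array other than vehicle 1 or vehicle 5 (adjusted p 0.0545 to 0.118). It also ended with the mean of the gene's probe sets (-0.30 ± 0.09, adjusted p = 0.0748), since the second one, at -0.20 ± 0.09, was not past the threshold (adjusted p = 0.278). Pdk1, a sister kinase, differed by 0.05 (95% interval -0.22 to 0.32). Pdha1, a subunit of the dehydrogenase itself, differed by 0.13 ± 0.07 on its brightest probe set and by 0.27 ± 0.08 on its other, neither past the threshold.

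Along gluconeogenesis and glucose release all 4 members followed were lower on average, and 1 passed. Slc37a4, the transporter that carries glucose 6-phosphate into the endoplasmic reticulum where it is cleaved to glucose, measured 11.12, 11.47, 11.42, 11.33 and 11.71 in vehicle and 10.69, 10.73, 10.70, 10.96 and 10.75 in dosed arrays. The groups did not overlap, and dosed 4 stood above the other dosed arrays. It fell by 0.64 ± 0.10, or 1.56-fold (limma adjusted p = 0.00227), and its call held with any 1 array left out. Fbp1, fructose bisphosphatase, was 13.25, 13.20, 13.40, 13.27 and 13.18 in vehicle and 13.01, 13.04, 13.08, 13.14 and 13.07 in dosed arrays. Its groups were apart too, at a smaller difference of -0.19 ± 0.06 that did not pass (adjusted p = 0.116). Slc2a2, the glucose transporter GLUT2 of the hepatocyte membrane, differed by -0.19 ± 0.06 (adjusted p = 0.130).

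Pck1 encodes the cytosolic phosphoenolpyruvate carboxykinase, the gene of this pathway most closely tied to fasting. It was 13.38 ± 0.23 in vehicle and 13.27 ± 0.20 in dosed arrays (SD, n = 5), a difference of -0.11 with a 95% interval of -0.37 to 0.15. G6pc, the glucose 6-phosphatase catalytic subunit, was covered by 4 probe sets, each annotated also to Psme3 and Aoc3. The probe set designed on a RefSeq transcript of G6pc was 12.89 ± 0.20 in vehicle and 12.75 ± 0.31 in dosed arrays (SD, n = 5), a difference of -0.14 ± 0.14 (adjusted p = 0.725). Among the other 3, which differed by -0.10, 0.07 and 0.28, the last passed (limma adjusted p = 0.0446). That probe set was much dimmer than the one designed on the RefSeq transcript, at 8.20 ± 0.13 in vehicle and 8.49 ± 0.07 in dosed arrays (SD, n = 5). Which of the genes it reads is not settled by the annotation, so its rise is not read as one of G6pc.

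Of the hormonal regulators Irs2 changed. Irs2, an adaptor that passes the insulin signal inward, was 8.13, 8.82, 8.17, 8.57 and 8.79 in vehicle and 8.06, 7.57, 7.68, 7.57 and 8.02 in dosed arrays. The lowest vehicle array, vehicle 1, and the highest dosed array, dosed 1, nearly met. Irs2 fell by 0.71 ± 0.16, or 1.64-fold (limma adjusted p = 0.0190), and lost the call without dosed 2 or dosed 4 (adjusted p 0.0540 to 0.0558). The receptor Insr and the other substrate Irs1 lay the other way, by 0.28 ± 0.09 (adjusted p = 0.122) and 0.27 ± 0.10 (adjusted p = 0.172), and did not pass. Irs1 was dim, at 5.12 ± 0.21 in vehicle and 5.39 ± 0.12 in dosed arrays (SD, n = 5), the 32.6th percentile of probe sets. Insr passed without vehicle 2 (0.35 ± 0.08, adjusted p = 0.0432). The second probe set of Insr differed by 0.10 ± 0.10. Ppargc1a, a coactivator that switches on gluconeogenic genes in fasting, was 6.70 ± 0.24 and 6.64 ± 0.08 (SD, n = 5), a difference of -0.06 with a 95% interval of -0.29 to 0.17.

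In glycogen metabolism the enzyme of breakdown fell. Pygl, the liver glycogen phosphorylase, measured 11.39, 11.36, 11.57, 11.52 and 11.17 in vehicle and 10.71, 10.97, 11.12, 10.94 and 10.87 in dosed arrays. The groups did not overlap. The fall was 0.48 ± 0.09, or 1.40-fold (limma adjusted p = 0.00883), and held with any 1 array left out. Gys2, the liver glycogen synthase, was 9.21 ± 0.16 and 9.53 ± 0.17 (SD, n = 5), higher by 0.31 ± 0.10 and not past the threshold (adjusted p = 0.101) unless dosed 1 was left out (0.38 ± 0.09, adjusted p = 0.0457). Pgm1, which links glucose 1-phosphate to glucose 6-phosphate, was 10.81, 10.72, 10.93, 10.76 and 10.69 in vehicle and 10.36, 10.50, 10.67, 10.43 and 10.56 in dosed arrays. The dosed arrays were all lower, and the difference of -0.28 ± 0.07 fell just short (adjusted p = 0.0521), passing without vehicle 5 (-0.30 ± 0.07, adjusted p = 0.0317) or dosed 3 (-0.32 ± 0.07, adjusted p = 0.0350). Its second probe set differed by -0.21 ± 0.09 and was not past the threshold. Gbe1, the branching enzyme, and Gyg1, the self-glucosylating primer of glycogen, differed by -0.04 and -0.19, and neither passed.

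A longer list of 79 further genes of these pathways held 12 that changed, 5 up and 7 down. That is 15.2%, beside 6.43% of all 14217 genes, with 3.32% called higher and 3.11% called lower. The same shares stand beside the counts by class below. This list, too, was chosen with earlier results of these data known. In fructose and galactose entry, Tkfc, the triokinase that follows ketohexokinase in the fructose pathway, fell by 0.66 ± 0.12 (limma adjusted p = 0.00734), and Galm, galactose mutarotase, by 0.37 ± 0.08 (adjusted p = 0.0194), a call that ended without dosed 4 (adjusted p = 0.0518). Tkfc was 10.37, 10.37, 10.49, 9.88 and 10.64 in vehicle and 9.48, 9.76, 9.76, 9.78 and 9.68 in dosed arrays. On their brightest probe sets Khk and Tkfc, both kinases of the fructose pathway, were thus lower in every dosed array than in any vehicle array. With the mean of its probe sets the fall of Tkfc was smaller, at 0.45 ± 0.08 (limma adjusted p = 0.00406). The remaining 15 of the 17 genes in this class did not pass.

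Around pyruvate, 3 of 21 further genes changed. Pdk4, a kinase of pyruvate dehydrogenase that is high in fasting, rose by 0.82 ± 0.17 (limma adjusted p = 0.0141), from 11.09, 11.65, 11.77, 11.14 and 11.27 to 12.38, 12.22, 12.60, 12.08 and 11.72. The highest vehicle array, vehicle 3, overlapped the lowest dosed array, dosed 5. Pdk4 and Pdk2 thus differed from vehicle in opposite directions. Slc16a1, a carrier of lactate and pyruvate, fell by 0.44 ± 0.07 (adjusted p = 0.00263), or by 0.25 ± 0.06 with the mean of its probe sets (adjusted p = 0.0309). Got2, the mitochondrial aspartate aminotransferase, fell by 0.37 ± 0.06 (adjusted p = 0.00355), or by 0.28 ± 0.07 with the mean of its probe sets (adjusted p = 0.0264).

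In glycogen 2 of 17 further genes changed, both upward and both of the lysosomal route. Stbd1, a glycogen-binding protein linked to the delivery of glycogen to lysosomes, was 10.35, 10.11, 10.37, 10.39 and 10.43 in vehicle and 11.06, 11.06, 10.83, 10.99 and 11.01 in dosed arrays. All dosed arrays were well above the vehicle arrays, a rise of 0.66 ± 0.08, or 1.58-fold (limma adjusted p = 3.08e-04). Gaa, the acid glucosidase that digests glycogen in lysosomes, rose by 0.36 ± 0.08 (adjusted p = 0.0181), with dosed arrays from 9.83 to 10.06 and vehicle arrays from 9.46 to 9.82. Its call ended without vehicle 1 or dosed 5 (adjusted p 0.0517 to 0.0529).

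Among 24 further genes of hormonal and transcriptional control 2 rose and 3 fell. Receptors of the hormones that release glucose were among the falls. Adra1b, the alpha-1B adrenergic receptor, was 10.38, 10.34, 10.42, 10.20 and 10.47 in vehicle and 9.81, 9.64, 10.04, 9.63 and 9.79 in dosed arrays, a fall of 0.58 ± 0.09 (limma adjusted p = 0.00177). Gcgr, the glucagon receptor, fell by 0.41 ± 0.10 (adjusted p = 0.0341), a call that ended without any 1 array other than vehicle 1 or vehicle 5 (adjusted p 0.0511 to 0.0884). Foxo3, a forkhead factor restrained by insulin, fell by 0.45 ± 0.08 (adjusted p = 0.00375), a call that ended with the mean of its probe sets (-0.15 ± 0.06, adjusted p = 0.161).

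Cebpb, a leucine zipper factor of the fasting and stress responses, rose by 0.69 ± 0.08 (limma adjusted p = 4.89e-04), from 9.47 to 9.75 in vehicle arrays to between 10.16 and 10.53. Igfbp1, a binding protein that insulin represses, spread widely among vehicle arrays (11.40, 11.78, 10.57, 10.39 and 10.03) and overlapped the dosed arrays (11.58, 11.92, 11.72, 12.41 and 12.51). Its rise of 1.20 ± 0.30 (adjusted p = 0.0409) lost the call without vehicle 3, 4 or 5 or dosed 2, 3, 4 or 5 (adjusted p 0.0558 to 0.106).

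**Figure D4:**
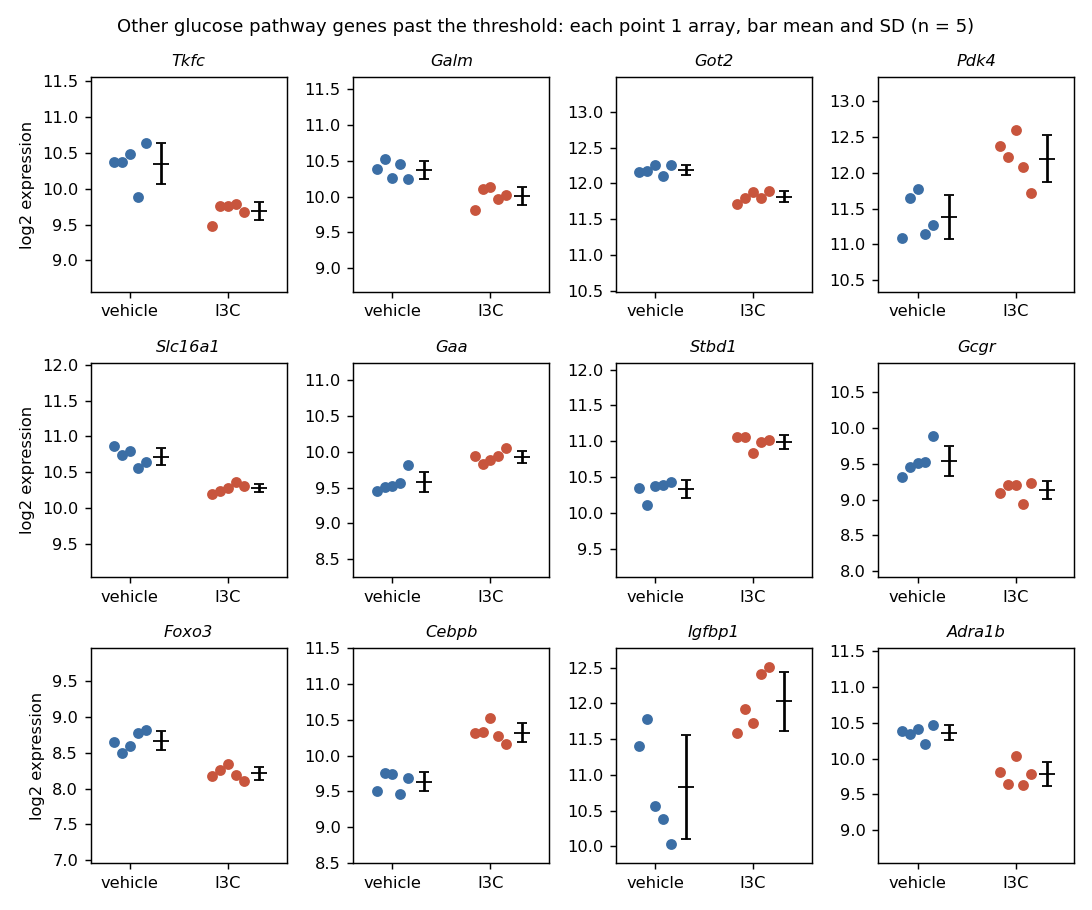
Log2 expression of the 12 further glucose pathway genes past the threshold in each array, with mean and SD (5 per group); every panel spans 3 units. Stbd1, Cebpb and Gaa are above all vehicle arrays under I3C, the 7 falls are below all of them, and the groups overlap in Pdk4 and Igfbp1.

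When the Gapdh 3' minus 5' difference was entered in the model as a covariate, 1 of the 30 members was higher and 1 lower, beside 0.802% of all genes in each direction. Pfkfb1 (1.47 ± 0.20, limma adjusted p = 0.00607) and Khk (-0.70 ± 0.10, adjusted p = 0.00841) kept their calls. The covariate separates the groups, and the SE of Pfkfb1 went from 0.12 to 0.20. The other 6 fallen members stayed below 0 without passing: Pygl at -0.61 ± 0.15 (adjusted p = 0.0832), Irs2 at -0.57 ± 0.26 (adjusted p = 0.335), Slc37a4 at -0.49 ± 0.16 (adjusted p = 0.179), Pklr at -0.38 ± 0.28 (adjusted p = 0.555), Pcx at -0.26 ± 0.15 (adjusted p = 0.439) and Pdk2 at -0.08 ± 0.13 (adjusted p = 0.797). Of the 7 fallen members 4 kept at least 75% of their difference, and Pdk2 kept the least. Vehicle 5, which had the largest Gapdh difference, was also the highest vehicle array for Pdk2, Pcx, Slc37a4, Pfkl and Gcgr, and the lowest for Khk and Pygl. The part of RNA quality in these results was not tested beyond this model.

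Other genes moved the other way under the covariate. Pck1 went from -0.11 to -0.54 ± 0.13 (limma adjusted p = 0.0786) and Ppargc1a from -0.06 to -0.40 ± 0.13 (adjusted p = 0.169), neither past the threshold in either model. Among the further genes Stbd1 (0.81 ± 0.11), Gaa (0.54 ± 0.11), Cebpb (0.71 ± 0.14) and Slc16a1 (-0.55 ± 0.11) kept their calls, with adjusted p of 0.00746 to 0.0411. Tkfc (-0.49 ± 0.20), Adra1b (-0.49 ± 0.14), Galm (-0.46 ± 0.13), Got2 (-0.31 ± 0.10), Foxo3 (-0.26 ± 0.11) and Pdk4 (0.68 ± 0.28) lost them at adjusted p of 0.137 to 0.293. Gcgr went to -0.06 ± 0.11 and Igfbp1 to 0.15 ± 0.35.

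**Figure D5:**
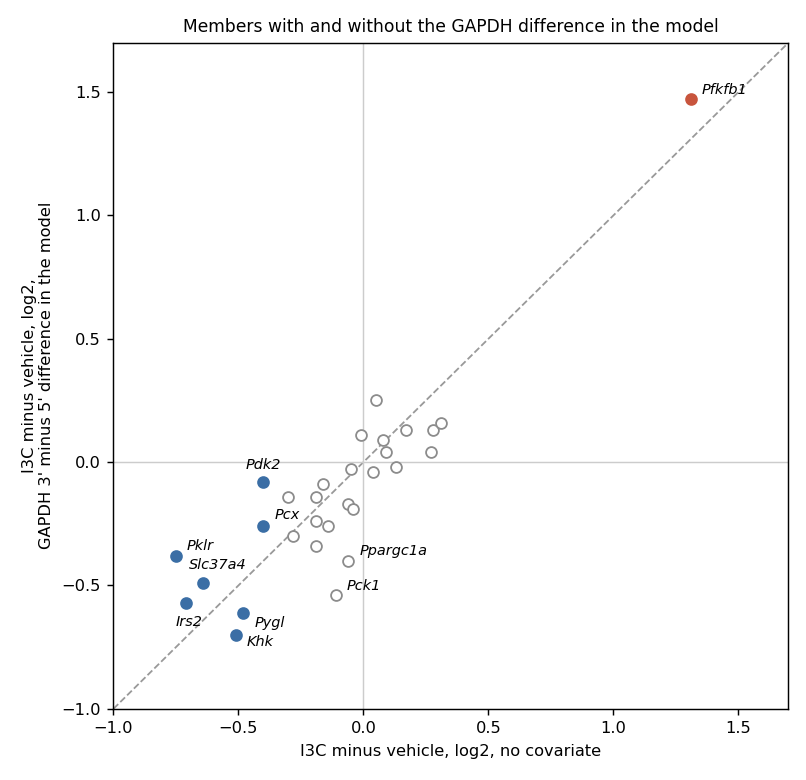
I3C minus vehicle differences of the 30 members in log2 units without (horizontal axis) and with (vertical axis) the Gapdh 3' minus 5' difference in the model; the dashed line marks equal values, and filled points were past the threshold without it. Pfkfb1 and Khk lie farther from 0 with it, Pdk2 moves to -0.08, and Pck1 to -0.54.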

How the data were processed

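Liver RNA (5 ug) of 10 samples was labelled with biotin after 3' one-cycle amplification and hybridised, 1 array per sample, per the labels' protocols. The table holds the authors' deposited log2 values, made with RMA per the submitters' processing notes. RMA equalises the distributions of arrays, so a shift common to all genes is lost and large folds are compressed. Array medians were 6.21 to 6.29, pairs of arrays correlated at 0.983 to 0.997, and the number of arrays limits the precision.

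Of 31099 probe sets 57 are controls. Of the 31042 others, 20826 carry 1 gene in the 2016 platform annotation, 436 several and 9780 none here, with symbols updated by Entrez ID through RefSeq (GRCr8) for 20758. Pcx was found as Pc. Each gene was followed through its brightest single-gene probe set over all 10 arrays. Of the 89 further pathway genes 79 were matched, and of 56 cell type markers 50.

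Dosed and vehicle arrays were compared two-sided in R 4.3.3 by limma 3.58.1, using lmFit and eBayes with no variance trend (4.60 prior degrees of freedom), on all 31042 probe sets, and tested on simulated data. All members are described. Of the further genes those past the threshold are named. Gapdh and beta-actin 3' minus 5' differences were compared by exact permutation tests over 252 splits. Promoter windows were searched with Python 3.11.15. Members and lists were chosen with earlier results of these data known. Alternatives were averaging the probe sets of a gene, leaving out each array, dropping dim probe sets, weighting arrays, centring on medians, repeating quantile normalisation, blocking on replicate number, a robust variance trend, and the Gapdh covariate.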

Additional observations from a re-analysis of the deposited data

Results flagged for a closer look

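Among 84 groups of 5 arrays examined for the 42 genes with values above, 4 held an array far from the rest, by its gap to the nearest array as a share of the group's range (Dixon's test). Chance flags about 1 in 20 groups. Pfkfb3 was 7.69 in dosed 1 against 7.16 to 7.30 in the other dosed arrays. Slc37a4 was 10.96 in dosed 4 against 10.69 to 10.75. Gaa was 9.82 in vehicle 5 against 9.46 to 9.56 in the other vehicle arrays. Stbd1 was 10.11 in vehicle 2 against 10.35 to 10.43.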

How the results depend on the processing

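The rise of Pfkfb1 and the fall of Khk passed under every alternative run. The 7 fallen members became 1 with the Gapdh difference in the model, and the further genes 3 up and 1 down against 5 and 7; the Gapdh difference separates the groups. Members called higher were 2 after renewed quantile normalisation and 2 with array weights, Gys2 being added both times. With each array left out in turn, 1 to 2 members rose and 3 to 7 fell, and 3 to 5 further genes rose and 5 to 8 fell. The number was lowest, 3 falls, without dosed 4 (Khk, Slc37a4, Pygl) and 4 without vehicle 2, vehicle 3, dosed 1 or dosed 2. Insr was the added rise without vehicle 2, and Gys2 without dosed 1, while 3 further genes rose without dosed 5. Without dim probe sets, Pfkl (adjusted p = 0.0475) and Pgm1 (adjusted p = 0.0344) joined the falls. Array weights added Fbp1, Pfkl and Pgm1 to the falls and took Pklr (-0.59 ± 0.17, adjusted p = 0.0567). Renewed quantile normalisation took the calls of Pdk2, Gaa and Gcgr (adjusted p 0.0802 to 0.0885). It added Pgm1 (limma adjusted p = 0.0377), Nr3c1 and Grb14 to the falls. A robust variance trend took the call of Igfbp1 (adjusted p = 0.100), and Foxo3 lost its call with the mean of its probe sets (-0.15 ± 0.06, adjusted p = 0.161). The mean of probe sets added Pfkl (limma adjusted p = 0.0468), Cebpa and Onecut1 to the falls. Cebpa also fell past the threshold with the robust trend, with array weights and without dim probe sets. Array weights further added Nr3c1 to the falls and Pck2 to the rises. Members with differences near 0 changed sign without passing: Pfkfb3 was 0.00 after quantile normalisation, 0.01 after centring, 0.11 with the Gapdh difference and -0.10 to 0.04 with 1 array left out. With the Gapdh difference Pgk1 was -0.04 and Pdha1 -0.02, and with the mean of probe sets Pdk1 was -0.02. With 1 array left out Pdk1 ran from -0.05 to 0.13, Pgk1 from -0.01 to 0.07, Gbe1 from -0.11 to 0.01 and Ppargc1a from -0.14 to 0.03.

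With the replicate number as a block, 1 member rose and 6 fell, and 4 further genes rose and 6 fell; Pdk2, Galm and Igfbp1 were not past the threshold (adjusted p 0.0547 to 0.104). The numbers are not said to pair samples: same-numbered arrays correlated at -0.28 to 0.22 in their deviations from the group means, and 2 of 5 vehicle arrays correlated best with the dosed array of their own number. Signal on these arrays limits the dim members most, and the values carry no count of reads or measure of background.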

Other observations

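The manufacturer's control probe sets for hexokinase, annotated to Hk1, lay at 5.73 ± 0.16 and 5.62 ± 0.16 at the 3' end, 6.09 ± 0.09 and 6.09 ± 0.09 in the middle, and 3.80 ± 0.06 and 3.82 ± 0.12 at the 5' end (SD, n = 5, vehicle then dosed). The groups overlapped at all 3 positions. The second probe set of Hk1 in the main table differed by 0.09 ± 0.08, the same difference as the brighter one. Of the genes that mark pancreas, Cpa1 fell from 11.54 ± 0.41 to 9.44 ± 0.65 (SD, n = 5, limma adjusted p = 7.97e-04), while the other 4 genes of that list did not pass: the exocrine genes Prss1 and Pnlip differed by -0.05 and 0.11, and the insulin genes Ins1 and Ins2 by 0.07 and 0.02.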
